A study of Mus musculus with 12 samples.

Results

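Egr1, Egr2, Egr3, Klf2, Klf4 and Ier3 are immediate early genes listed as lower after irradiation of bone marrow KSL cells in the authors' deposited table of probe sets that changed. Every row of that table with 1 of these 6 gene symbols was taken, which gave 8 probe sets of the 22626 with log2 values on each array, and 6 of the 325 genes that the table names singly. KSL cells carry Kit and Sca-1 on their surface and lack the markers of mature lineages, and this sorted population holds hematopoietic stem cells and early progenitors. The mice were C57Bl/6 and 10 weeks old. The 6 control arrays hold KSL cells of mice that were not irradiated (0cGy), and the 6 irradiated arrays hold KSL cells of mice given 550cGy from a cesium source, isolated at day 14 by the series' design text. The labels name no other treatment or genetic change in either group, and they do not say whether an array holds 1 mouse or a pool, or whether replicates came from separate mice. The p-values below therefore measure only the spread between these arrays, which may be technical. The genes of the sorting markers, Kit and Ly6a, have no probe set in the authors' table, so the sort could not be checked on these arrays.

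Immediate early genes are transcribed within minutes of a stimulus, without new protein synthesis, when signalling through kinases such as ERK reaches factors already bound at their promoters. The Egr proteins are zinc finger transcription factors induced largely through the serum response factor, which binds CArG boxes. In mice, loss of Egr1 makes hematopoietic stem cells divide more and leave the marrow. Klf2 and Klf4 are Krüppel-like zinc finger factors. Klf2 is induced through ERK5 and MEF2 factors in endothelial cells and keeps mouse T cells quiescent, and Klf4 promotes monocyte differentiation in mice and is a factor used to reprogram cells to pluripotency. Ier3 encodes a small protein that responds to NF-kB and growth signals and affects cell survival. These genes also respond to the handling and sorting of cells.

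All 6 genes were lower in the irradiated cells by a similar factor, 2.07-fold to 2.35-fold in the brightest probe set of each gene. The median log2 change of the 6 genes was -1.13, against 0.01 over all 22626 probe sets. Among the 197 genes of the table with lower means, which passed the same limits, the median was -1.20. Because the authors' table keeps rows past limits of 2-fold and of 0.05 in unadjusted p on these same arrays, the direction and the minimum size were set by the choice of genes, and no test of them is given. In the authors' deposited table the smallest change among the 8 probe sets is that of Ier3 (2.07-fold lower) and the largest p that of Egr1 (0.00413). Any other probe sets of these genes, outside the limits, carry no name here, so their changes are not known. In limma, with calls made under 0.05 after Benjamini-Hochberg adjustment, 8 of the 8 probe sets were called lower, beside 5.47% of all probe sets, and this count follows from the selection. In these bulk samples, fewer cells that express a gene and less RNA per cell cannot be told apart.

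The letters upstream of Klf2 and around 2 sites of Egr2 are shown because CArG and MEF2 boxes are the elements through which early signals are known to reach such promoters. Those upstream of Klf4, where neither box was found, are shown beside them. RefSeq windows (GRCm38.p6) were found for Egr2, with 5 start sites, and for Klf2, Klf4 and Ier3, with 1 each. The 250 bases before each start were searched on both strands for the CArG box, the MEF2 box, TGACG (the core of a cyclic AMP response element), GCGNGGGCG (the site bound by Egr factors) and GGGCGG (a GC box, bound by Sp and Klf factors). Capitals mark the CArG box, the MEF2 box and TGACG or its complement, and all sequences run 5′ to 3′ on the strand of the gene. The Klf2 sequence is chr8:72318812-72319061 (plus strand), that of Klf4 is chr4:55532476-55532725 (minus strand), and the Egr2 sites are chr10:67537484-67537513 and chr10:67537787-67537816 (plus strand).
Klf2: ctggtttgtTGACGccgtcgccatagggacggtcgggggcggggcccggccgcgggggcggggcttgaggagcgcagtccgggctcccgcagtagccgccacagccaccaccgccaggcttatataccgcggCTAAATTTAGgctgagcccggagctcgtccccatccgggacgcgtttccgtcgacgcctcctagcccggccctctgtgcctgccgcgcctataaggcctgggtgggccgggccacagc
Klf4: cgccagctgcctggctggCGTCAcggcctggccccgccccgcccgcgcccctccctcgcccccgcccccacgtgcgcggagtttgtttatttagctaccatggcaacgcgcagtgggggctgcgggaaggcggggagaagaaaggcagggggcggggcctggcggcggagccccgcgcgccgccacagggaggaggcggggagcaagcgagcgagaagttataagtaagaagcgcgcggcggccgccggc
Egr2 first site: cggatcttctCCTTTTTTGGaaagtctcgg
Egr2 second site: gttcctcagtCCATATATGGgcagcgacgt

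The MEF2 box of Klf2 starts 118 bases before the transcription start. Such a box occurs in 0.509% of 32841 promoter windows. The CArG boxes of Egr2 each start 72 bases before an annotated start, and the second lies also within the windows of 2 further starts slightly downstream. A CArG box occurs in 1.47% of all windows. TGACG was found once upstream of Klf2, once upstream of Klf4 and at 2 positions near the second Egr2 site, and occurs in 17.8% of windows. GCGNGGGCG was found once in Klf2 and at 2 positions in Klf4 (4.70% of windows), in each case overlapping a GC box. GGGCGG, present in 32.7% of windows, was found upstream of each of the 4 genes, and was the only searched motif upstream of Ier3, 96 bases before its start. These matches describe letters and not occupied sites.

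Egr1, on chromosome 18, is the founding member of the family. Its control values ran from 11.76 to 12.99 with a median of 12.45 (log2), and its irradiated values from 10.76 to 11.91 with a median of 11.17. The control mean was 12.39 ± 0.62 and the irradiated mean 11.24 ± 0.45 (SD, n = 6 each), a log2 change of -1.16 (SE 0.28), or 2.23-fold lower. The groups overlapped, since irradiated replicate 3 (11.91) was brighter than control replicates 5 (11.77) and 6 (11.76). Control replicates 1 to 3 lay within 12.93 to 12.99 and control replicates 4 to 6 within 11.76 to 11.96. The irradiated arrays were split in the same order, at 11.23 to 11.91 in replicates 1 to 3 and 10.76 to 11.12 in replicates 4 to 6.

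These 2 sets of replicates, 1 to 3 and 4 to 6, are not named as batches in the labels. They were noticed in earlier results of these data, as a separation of the arrays over all probe sets. Values within each set are therefore given beside the pooled ones. Within each set the irradiated arrays of Egr1 lay below the controls, with a change of -1.38 in replicates 1 to 3 and of -0.94 in replicates 4 to 6.

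Egr2, on chromosome 10, encodes the family member known for myelination in Schwann cells and for tolerance in T cells. In its brighter probe set (1427683_at) the controls ran from 7.61 to 8.85 with a median of 8.44 and the irradiated arrays from 6.44 to 7.54 with a median of 7.36. The mean went from 8.38 ± 0.42 to 7.22 ± 0.42, a change of -1.16 (SE 0.22). All irradiated arrays lay below all controls, but by a gap of only 0.06. The low end of each group was a single array, control replicate 2 (7.61) and irradiated replicate 1 (6.44).

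The dimmer Egr2 probe set (1427682_a_at) gave control values of 6.52 to 7.74 (median 7.41) and irradiated values of 5.25 to 6.53 (median 6.16), a change of -1.23 (SE 0.23). Here the groups touched, with irradiated replicate 6 (6.53) just above control replicate 2 (6.52). Both probe sets had their lowest control in replicate 2 and their lowest irradiated array in replicate 1. The changes within replicates 1 to 3 and 4 to 6 were -1.04 and -1.27 in the brighter probe set and -1.32 and -1.15 in the dimmer one.

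Egr3, on chromosome 14, induced by calcium signalling through NFAT in lymphocytes, had the smallest spread of the 6 genes. Controls ran from 8.23 to 8.67 with a median of 8.45 and irradiated arrays from 7.18 to 7.74 with a median of 7.33. The means were 8.45 ± 0.18 and 7.39 ± 0.20, a change of -1.06 (SE 0.11). The lowest control was 0.50 above the highest irradiated array, the widest gap among the 8 probe sets. Replicates 1 to 3 changed by -0.94 and replicates 4 to 6 by -1.18.

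**Figure D1:**
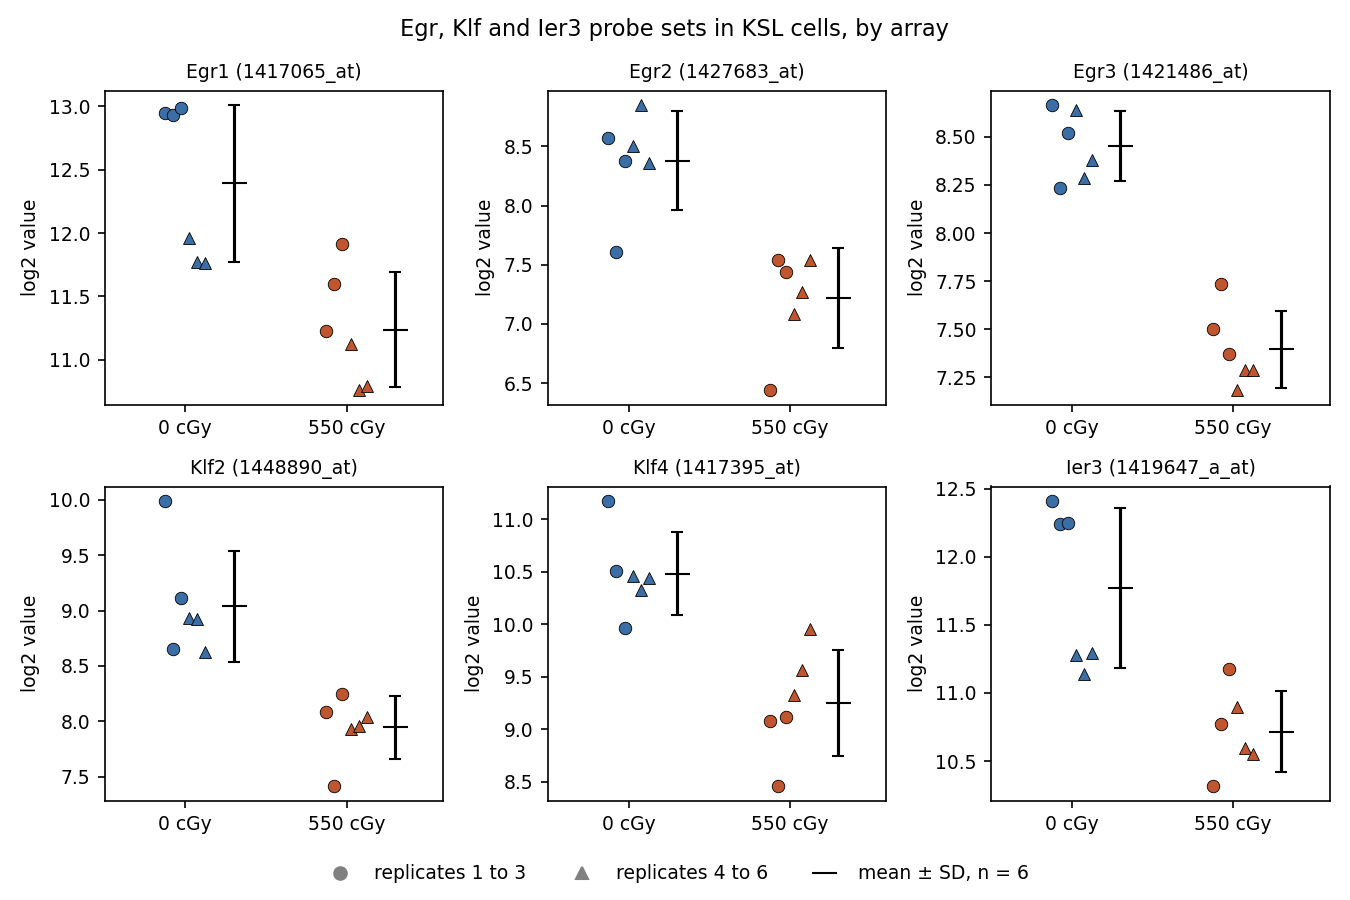
Log2 value of the brightest probe set of each gene (y axis, each panel with its own range) in the 6 control (0 cGy, blue) and 6 irradiated (550 cGy, orange) arrays, with circles for replicates 1 to 3, triangles for replicates 4 to 6 and black bars for mean ± SD. Control circles and triangles stand apart for Egr1 and Ier3 and are mixed for Egr3, and the groups do not overlap for Egr2, Egr3, Klf2 and Klf4.

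Klf2, on chromosome 8, was 2.13-fold lower. Its controls ran from 8.63 to 9.99 with a median of 8.93 and its irradiated arrays from 7.41 to 8.25 with a median of 8.002. The mean went from 9.04 ± 0.50 to 7.95 ± 0.28, a change of -1.09 (SE 0.21), and the lowest control lay 0.38 above the highest irradiated array. Control replicate 1 (9.99) stood well above the other controls, which lay between 8.63 and 9.12. Without it the change was -0.90. Replicates 1 to 3, which include that array, changed by -1.34 and replicates 4 to 6 by -0.85.

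Klf4, on chromosome 4, was 2.35-fold and 2.48-fold lower in its probe sets. In the brighter (1417395_at) the controls ran from 9.97 to 11.18 with a median of 10.46 and the irradiated arrays from 8.46 to 9.95 with a median of 9.23. Its mean went from 10.48 ± 0.39 to 9.25 ± 0.51, a change of -1.23 (SE 0.24). In the dimmer (1417394_at) the controls ran from 9.03 to 10.15 (median 9.58) and the irradiated arrays from 7.63 to 8.87 (median 8.39), a change of -1.31 (SE 0.23). The groups did not overlap in either, by gaps of 0.01 and 0.16, and both had irradiated replicate 2 lowest and irradiated replicate 6 highest of the irradiated arrays.

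The replicate sets of Klf4 stood apart in the irradiated arrays and overlapped in the controls, where replicates 1 to 3 were widely spread. In the brighter probe set, irradiated replicates 1 to 3 averaged 8.88 ± 0.37 and irradiated replicates 4 to 6 averaged 9.62 ± 0.32 (SD, n = 3 each), while the control means of the same sets were 10.55 ± 0.61 and 10.41 ± 0.08. Replicates 1 to 3 thus changed by -1.67 and replicates 4 to 6 by -0.80, and in the dimmer probe set by -1.70 and -0.91.

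Ier3, on chromosome 17, was 2.07-fold lower. Its controls ran from 11.14 to 12.41 with a median of 11.77 and its irradiated arrays from 10.31 to 11.17 with a median of 10.68. The mean went from 11.77 ± 0.59 to 10.72 ± 0.30, a change of -1.05 (SE 0.24). Irradiated replicate 3 (11.17) was above control replicate 5 (11.14), and no other array crossed. As for Egr1, control replicates 1 to 3 (12.24 to 12.41) lay apart from control replicates 4 to 6 (11.14 to 11.29). Unlike those of Egr1, the irradiated sets overlapped, with means of 10.75 and 10.68. Replicates 1 to 3 changed by -1.55 and replicates 4 to 6 by -0.56.

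Over the 8 probe sets, irradiated and control arrays did not overlap in 5, beside 2.80% of all probe sets with all irradiated arrays lower, a share from which nothing is read because the genes were chosen on this contrast. The overlap in Egr1 and Ier3 arose between sets. Within replicates 1 to 3 the irradiated arrays lay below the controls in 8 of 8 probe sets (12.9% of all), and within replicates 4 to 6 likewise in 8 of 8 (14.5% of all). Control replicates 1 to 3 and 4 to 6 did not overlap for 2 of the 8 probe sets, those of Egr1 and Ier3, beside 29.2% of all probe sets in either direction. The irradiated sets did not overlap for 4, those of Egr1 and Egr3, higher in replicates 1 to 3, and both of Klf4, higher in replicates 4 to 6, beside 23.4% of all.

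Whether the change itself differed between the sets was not what the genes were chosen on. A large difference does add to the spread behind the authors' p, which limited the choice. The difference, the change in replicates 1 to 3 minus that in replicates 4 to 6, was largest for Ier3 at -0.99 (SE 0.26, limma adjusted p = 0.177 over all probe sets). For Klf4 it was -0.87 (SE 0.40, limma adjusted p = 0.440) in the brighter and -0.79 (SE 0.36, limma adjusted p = 0.438) in the dimmer probe set. The other differences were -0.49 (SE 0.42) for Klf2, -0.43 (SE 0.23) for Egr1, 0.25 (SE 0.20) for Egr3, and 0.23 (SE 0.44) and -0.18 (SE 0.44) for the brighter and dimmer probe sets of Egr2, with limma adjusted p of 0.516 to 0.922. Thus 0 of the 8 probe sets passed, beside 0.133% of all probe sets, and 1, that of Ier3, had an unadjusted p under 0.05, beside 11.4% of all. Without irradiated replicate 3, Ier3 passed (limma adjusted p = 0.0472), and without any other 1 array 0 of the 8 did. With 3 arrays per group and set the intervals are wide, and the sets are not shown to be alike. The sets were found on these same arrays, so these p-values are not those of a split fixed beforehand.

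The other early genes of the table were lower too. Of 30 immediate early transcription factors and regulators, 26 feedback genes and 20 secreted or surface genes, 76 genes in all, 22 were in the table, the 6 genes above included. The remaining 16 all had lower means, with a median log2 change of -1.31, and 13 of them passed in limma. Of the 197 genes of the table with lower means, 180 passed. Lists and genes were chosen with results of these data known, and the table selects changed genes, so these counts are not independent evidence of a direction. Among the transcription factors, the orphan nuclear receptors Nr4a1 and Nr4a3, the bZIP factor Maff and the clock gene Per1 fell, by 1.52, 1.90, 1.11 and 1.23 on the log2 scale. Fosl2, a Fos family member, Nr4a2 and the antiproliferative gene Btg2 had changes of -1.26, -1.27 and -1.12 that did not pass, at limma adjusted p of 0.0934, 0.110 and 0.0976. The remaining 17 genes of that list, Fos, Jun and Egr4 among them, have no row in the table and were not analysed here.

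Of the feedback genes, 4 were in the table and 4 passed, as did most lower genes of the table. Dusp2, a phosphatase of ERK, had a change of -1.44, Nfkbiz, a nuclear IkB protein, of -1.35, the kinase gene Sik1 of -1.20 and Socs3, an inhibitor of cytokine receptors, of -1.11. Of the secreted and surface genes, 5 were in the table and 5 passed, with the chemokine genes Ccl3 and Ccl4 at -2.77 and -2.26, the cytokine gene Lif at -2.10, the urokinase receptor gene Plaur at -1.38 and Hbegf, a growth factor of the EGF family, at -1.18. The table held 0 of 24 genes of the ERK, SRF and ERK5 pathways upstream, so no change of at least 2-fold in a named probe set was listed for these kinases and factors.

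The early genes differed in how evenly they were lower over the replicates. All 16 others had the larger fall in replicates 1 to 3, with a median change of -2.10 there and -0.56 in replicates 4 to 6. For Nr4a2 the values were -2.73 and 0.18. Klf12 (-2.04 and -0.64), Cdkn1a (-1.84 and -0.66) and Emcn (-1.22 and -0.81), outside these lists, also fell more in replicates 1 to 3. Mpeg1 (-0.23 and -1.88) fell more in replicates 4 to 6. The share of all lower genes that fell more in replicates 1 to 3 was not computed. Of the 16, 3 differed between the sets in limma, Per1 and Sik1 (both adjusted p = 0.0261) and Btg2 (adjusted p = 0.0364), beside 0.133% of all probe sets. The sets were found on these same arrays, and the lists were chosen with results known. These p-values and this count are therefore not independent evidence of a difference. The 3 calls changed with the array left out. Without control replicate 4, 5 or 6 or irradiated replicate 2, 4, 5 or 6, 0 of the 16 passed. Without irradiated replicate 1 the number was 1, and without control replicate 1 it was 2. Without control replicate 3 the same 3 passed, without control replicate 2 it was 4 and without irradiated replicate 3 it was 10. Over all probe sets the count of 30 ran from 4 to 129 without 1 array. Of the 8 probe sets of the 6 genes, 6 had the larger change in replicates 1 to 3 and 2, of Egr2 and Egr3, in replicates 4 to 6. The median changes of the 6 genes were -1.36 and -0.90. Whether the 6 genes and the 16 others differ in this was not tested.

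**Figure D2:**
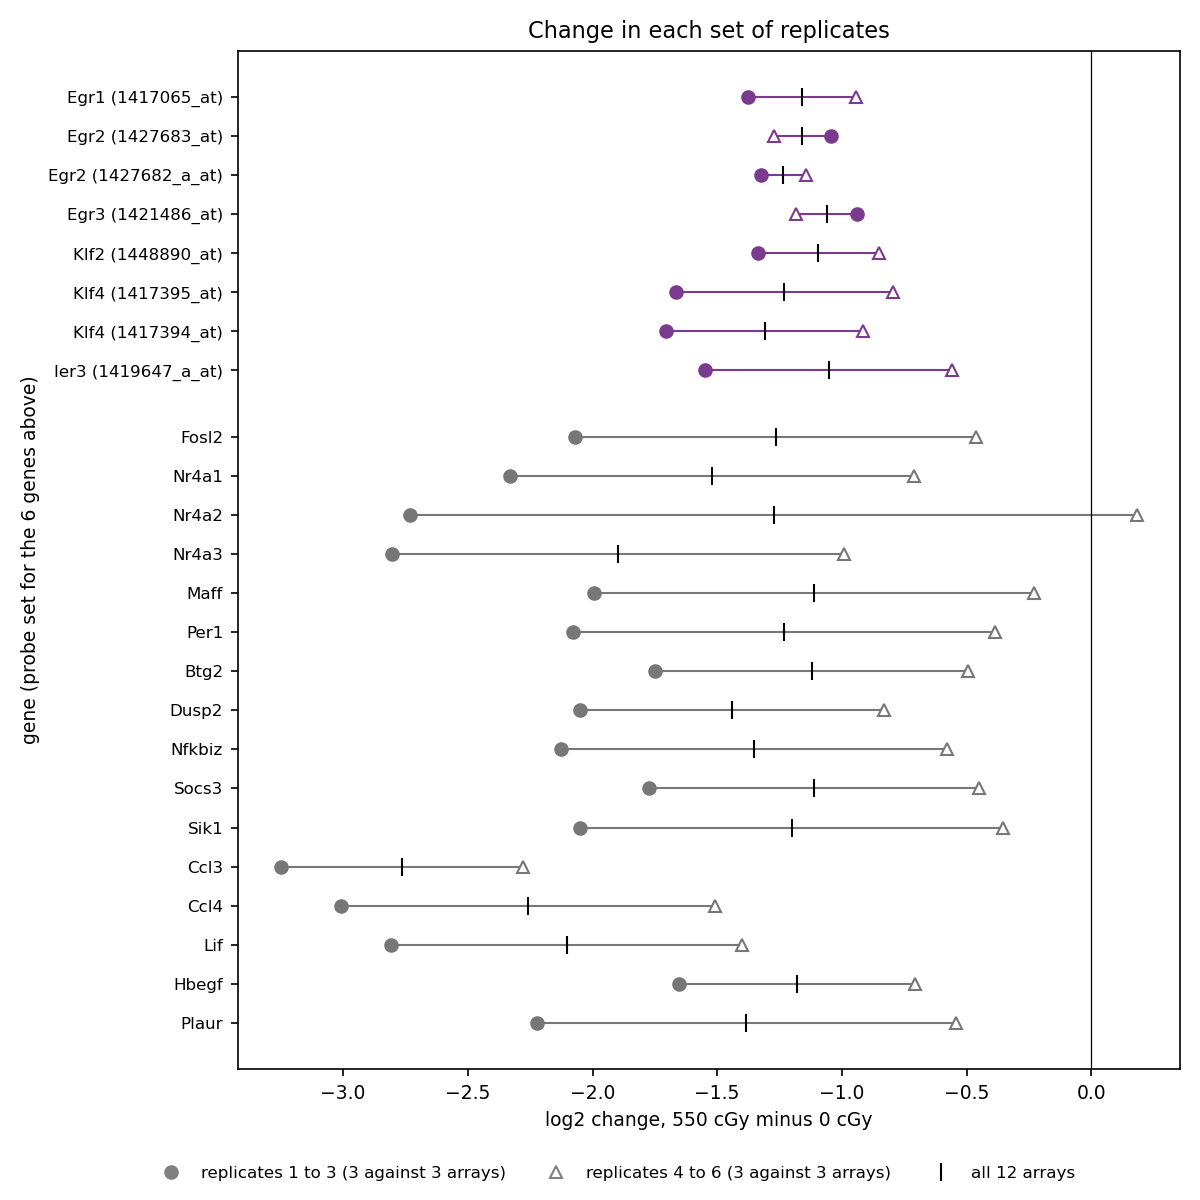
Log2 change (550 cGy minus 0 cGy, x axis) of the 8 probe sets of the 6 genes (purple) and of 16 other early genes (grey), in replicates 1 to 3 (filled circles), in replicates 4 to 6 (open triangles) and over all 12 arrays (black ticks). The values of Egr2 and Egr3 lie between -1.32 and -0.94, those of Klf4 and Ier3 lie further apart, and in Nr4a2 the triangle lies at 0.18.

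Within the Krüppel-like family the direction was mixed. Of 26 Klf and Sp genes 4 were in the table. Beside Klf2 and Klf4, Klf12, a repressor, was 2.53-fold lower, from 6.26 ± 0.98 to 4.92 ± 0.27, and Klf1, the erythroid member, was 6.92-fold higher, from 7.10 ± 1.09 to 9.89 ± 0.60 (log2, SD, n = 6 each). Of 11 genes regulated by Klf2 or Klf4 in blood or endothelial cells, Cdkn1a, which encodes the cell cycle inhibitor p21, was in the table, with a change of -1.25 that did not pass (limma adjusted p = 0.0573).

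Some marker genes of cell types and some heat shock genes also differed between the dose groups. Of 14 erythroid marker genes 11 were in the table, all with higher means, and 8 passed, beside 5.87% of all probe sets called higher. The table selects changed genes, and 113 of its 128 genes with higher means passed, so nothing is read from this count. The mean log2 level of the 11 erythroid genes ran from 6.26 to 7.50 in controls and from 7.57 to 9.33 in irradiated arrays. Of 10 heat shock genes that respond to cell handling, Hspa1a and Hspa1b were in the table, 3.62-fold and 5.50-fold higher, with a mean level of 5.00 to 7.42 in controls and 7.24 to 9.76 in irradiated arrays. Of the other marker lists, Fcer1a and Il1rl1 of 6 mast cell and basophil genes were higher (2.14-fold and 2.02-fold), Emcn of 7 endothelial and stromal genes was lower (2.02-fold), and Mpeg1 of 6 monocyte and macrophage genes had a change of -1.06 that did not pass (limma adjusted p = 0.0522). The table held 0 genes of the neutrophil, B cell, and T and NK cell lists. The part of cell composition and handling in the lower early genes was not tested.

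Within the dose groups the 6 genes went together only weakly on average. The authors' limit in p used the size of each array's deviation from its group mean, but not the correlation of deviations between genes. These deviations had a mean correlation of 0.16 over the 15 gene pairs and 12 arrays. With the means of the replicate sets removed as well, it was 0.24. Without control replicate 1, the highest control array of Egr3, Klf2, Klf4 and Ier3, the first of these was -0.04. Pairs were tested within each group of 6 arrays by exact permutation (two-sided, Benjamini-Hochberg over 30 pairs). Pairs with a gene whose replicate sets did not overlap in that group are not given, since those values form clusters of 3 arrays each, too few for a correlation within a cluster. These are pairs with Egr1 or Ier3 in the controls, and with Egr1, Egr3 or Klf4 in the irradiated arrays.

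Of the 6 remaining pairs in the controls and the 3 in the irradiated arrays, 0 passed after adjustment and 0 had an unadjusted p under 0.05. With 720 orders and adjustment over 30 pairs, a single pair could pass only at nearly the smallest possible p. The lack of passing pairs therefore does not show that the genes vary apart. In the controls r ran from 0.04 to 0.71. The highest was that of Egr3 and Klf2 (exact p = 0.0792, adjusted 0.698), with rho of 0.77 (exact p = 0.103, adjusted 0.617) and r of 0.38 without the 2 arrays farthest from the median of Egr3. All 6 control pairs had a positive r, but without the 2 farthest arrays only 4 had, as r turned from 0.65 to -0.84 for Klf2 and Klf4 and from 0.38 to -0.05 for Egr3 and Klf4. In the irradiated arrays r ran from -0.30 for Egr2 and Klf2 to 0.56 for Egr2 and Ier3, the latter at 0.08 without the 2 farthest arrays. No correlation within a replicate set was computed, as each holds 3 arrays of a group.

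**Figure D3:**
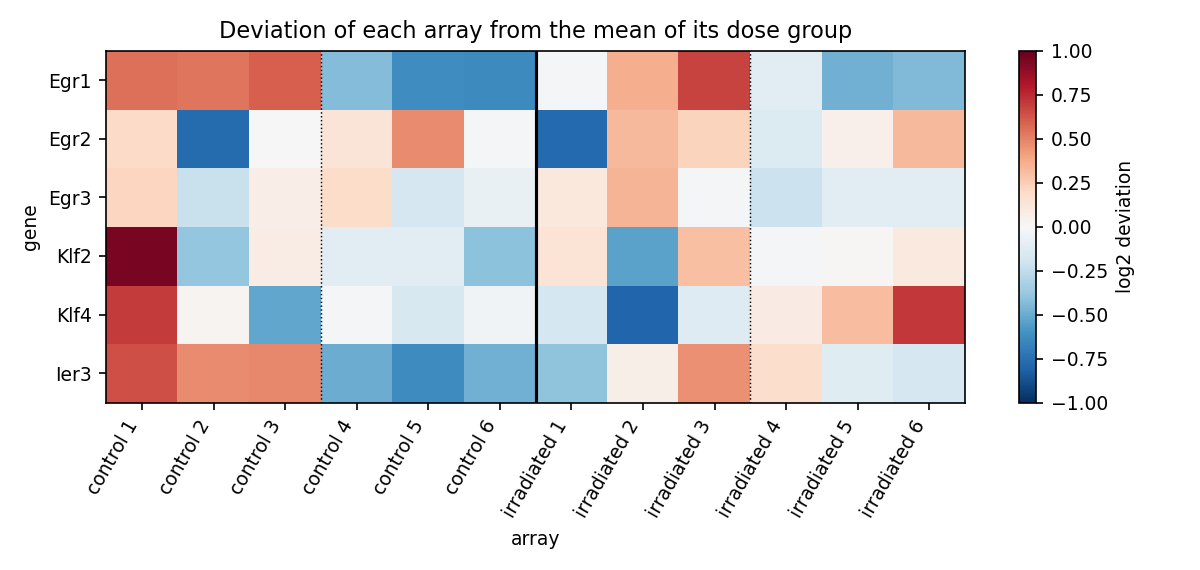
Log2 deviation (colour) of each of the 12 arrays (x axis) from the mean of its own dose group, for the brightest probe set of the 6 genes (y axis), with a solid line between the groups and dotted lines between replicates 1 to 3 and 4 to 6. Egr1 is above its mean in control replicates 1 to 3 and below in control replicates 4 to 6, as is Ier3, while Egr2 and Klf4 do not show this split.

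For the other 319 genes of the table, within-group deviations were correlated with the mean deviation of the 6 genes over 12 arrays. These correlations describe arrays that share replicate sets, and the median over the 319 genes was 0.07. The highest were those of Gramd1a, a cholesterol transport protein (0.87), Socs3 (0.85), the keratin gene Krt18 (0.78), Gimap6, a GTPase of lymphoid cells (0.78), Sik1 (0.76), Dusp2 (0.76), Ccl4 (0.75) and Tlr7, a receptor for single-stranded RNA (0.75). A high value did not mean that a gene followed each of the 6. Deviations were not scaled, so genes with a wider spread weigh more in the mean. Dusp2 had r of 0.91 with Egr1 and 0.93 with Ier3, but -0.27 with Egr2 and 0.01 with Klf4. The list depends on the replicate sets. With the set means removed as well, 2 of these 8 genes, Gramd1a (0.85) and Krt18 (0.81), were among the 8 highest, while Socs3 was at 0.75, Gimap6 at 0.56, Dusp2 at 0.57 and Ccl4 at 0.53. The 3 highest were then Zfp503 (0.94, from 0.44), the phosphodiesterase gene Pde4b (0.90, from 0.32) and Nr4a3 (0.88, from 0.25), of which Zfp503 and Pde4b were named after their values were seen. The lowest were Rrp8 (-0.88), Klf1 (-0.85) and Mtm1 (-0.85), all of them higher in the irradiated arrays.

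Each gene taken alone had other neighbours, given here as the 2 highest of 319 genes. These r were not computed with the set means removed. The sets of Egr1, Egr3, Klf4 and Ier3 stood apart in the controls, the irradiated arrays or both, so r may reflect that separation. Egr1 went most closely with Btg2 (0.94) and Ccl3 (0.92), and Ier3 with Gcnt2 (0.93) and Dusp2 (0.93). Btg2, Ccl3 and Dusp2 had control means in replicates 1 to 3 above those in replicates 4 to 6, by 1.94, 1.39 and 1.49, as Egr1 and Ier3 had by 1.12 and 1.06. Klf4 went most closely with H1f2, a linker histone gene (0.90), and Cytip (0.87). For Egr2 they were Slc11a2, an iron transporter gene (0.80), and Tgfbr2, a TGF-beta receptor gene (0.73), for Klf2 Klk8 (0.77) and Lsp1 (0.73), and for Egr3 Sox18 (0.72) and Ptms (0.67). Slc11a2 and Sox18 were higher in the irradiated arrays, with log2 changes of 1.20 and 1.15, while the other neighbours named here were lower. A high r within the groups thus did not mean a change in the same direction.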

How the data were processed

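RNA of sorted KSL cells was labelled with biotin and hybridised to arrays, 6 per dose group. The log2 values were deposited by the authors, 1 row per probe set and 1 column per sample. The submitters' processing notes name Partek, while how background was corrected and arrays normalized is not given in the sources used here. Array medians lay between 6.94 and 7.01. The authors' deposited table holds an unadjusted p-value and a linear ratio for every row, with a signed fold and analysis of variance scores, per the file headers. Its log2 ratios equalled differences of group means within 2.36e-05.

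All 12 arrays were fitted in R 4.3.3 by lmFit and eBayes of limma 3.58.1, with no filter and p adjusted over all 22626 probe sets. Their median SE of a log2 difference was 0.13. The number of arrays limits the precision. The interaction of dose and replicate set was fitted likewise. Names came from the authors' table, where 436 of 454 probe sets name 1 gene, and 425 were matched to RefSeq by gene ID. The brightest probe set by its mean over 12 arrays stands for a gene, and levels are not compared between probe sets. Single pairs were tested with exact permutations in Python 3.11.15 with SciPy 1.17.1. Both limma fits were tested on simulated data.

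The genes, lists, replicate sets and the rule for named genes were chosen with earlier results of these data known. The rule named every probe set of the 6 genes, every list gene in the table, and the genes nearest in within-group deviation. Alternatives were quantile normalization, array medians subtracted, the dimmest 40% left out, a trended and robust prior, array weights, the replicate set as a term or alone, a replicate block, and each array left out in turn. Leaving out arrays for the set difference of single early genes, and likeness with set means removed as a ranking, were chosen after seeing the data.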

Additional observations from a re-analysis of the deposited data

Results flagged for a closer look

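Klf2 (probe set 1448890_at) in control replicate 1 had a log2 value of 9.99, far above the other 5 control arrays at 8.63 to 9.12. The gap was 0.641 of the range of the group. Each of the 8 probe sets was looked at in both groups, and chance alone flags about 1 in 20 groups.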

How the results depend on the processing

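The log2 change of the 8 probe sets was below 0 under all alternatives run, 162 values between -1.70 and -0.56, and 160 of these moved by less than the SD between arrays. The exceptions were those of Ier3, at -1.55 in replicates 1 to 3 alone and -0.56 in replicates 4 to 6 alone. The direction was set by the choice of genes. With equal numbers of arrays, the replicate set as a term and the replicate block cannot move a log2 change. Leaving out each array in turn gave a median change of the 6 genes of -1.18 to -1.03 and always 8 calls. Replicates 1 to 3 alone gave 5 calls among the 8 probe sets, and replicates 4 to 6 alone, with as many arrays, gave 8. Over all probe sets, 1329 were called higher and 1238 lower. The counts were 2099 and 1833 with the replicate set as a term, 539 and 601 in replicates 1 to 3 alone, 720 and 738 in replicates 4 to 6 alone, and 740 to 1531 higher and 773 to 1303 lower without 1 array. Those that moved a count by over 1.5 times were irradiated replicates 1 (740 higher, 773 lower), 5 (830 higher) and 6 (769 higher) and control replicate 1 (837 higher). With array medians subtracted they were 1765 and 1081. The number of probe sets whose change differed between the sets, 30, ran from 4 to 129 without 1 array. It was 58, 4, 7 and 11 without control replicates 2, 4, 5 and 6, and 14, 8, 129, 4, 11 and 4 without irradiated replicates 1 to 6, and the cause was not tested. The mean correlation of the 6 genes ran from -0.044 (without control replicate 1, where it reversed) to 0.24 without 1 array. Replicate numbers do not pair the arrays by the labels. Same-numbered deviations correlated with r from 0.01 to 0.29, and 1 number was the best match in both directions. With the number as a replicate block, 1451 were higher and 1350 lower, and 8 of the 8 probe sets were called. Probe sets other than those named by the authors could not be assigned to these genes.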
